A study of Mus musculus with 9 samples.

Results

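Translation initiation factors were followed by RiboSeq in mouse macrophages, as the genes whose name in the deposited table starts with Eif1 to Eif6. The eIF2 kinases (Eif2ak1 to Eif2ak4) and the Y-linked gene Eif2s3y were left out by rule. This gave 53 of the 16921 genes in the table, of which 47 had a mean level of at least 10 and were kept, among 10102 kept genes. The names starting with Eif2, Eif3 and Eif4 made up 10, 16 and 15 of the 53 genes, and 10, 13 and 15 of the kept ones. The 6 genes below the minimum were Eif5a2, Eif3j2 and the pseudogene rows Eif1-ps3, Eif3s6-ps1, Eif3s6-ps2 and Eif5al3-ps, with mean levels between 0.0871 and 6.23.

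RiboSeq sequences the stretches of mRNA that ribosomes shield from nuclease, so that a gene's level here is its share of footprints. It reflects both mRNA amount and ribosome loading, which cannot be told apart from RiboSeq alone. The paper also reports RNASeq of these cells, which was not used here. All cells were TTP-deficient bone marrow-derived macrophages immortalized with MYC and mutant RAS oncogenes. They carried a doxycycline-inducible vector for GFP alone (GFP), for GFP fused to tristetraprolin (GFP-TTP), or for GFP fused to TTP with 2 serines changed to alanine (GFP-TTP-AA). TTP, encoded by Zfp36, binds AU-rich elements in 3′ UTRs and promotes decay of the mRNA, and the 2 serines are sites at which the kinase MK2 inactivates it. Each group had 3 libraries, all from cells given doxycycline (1 μg/ml) for 6 h and LPS (1 μg/ml) for 1 h, so that there was no unstimulated sample. Each protein was expressed in a transduced line of its own, and a difference between lines cannot be told apart from an effect of the protein. The labels give the libraries as biological replicates, and where nothing further ties them to separate cultures of a line, p-values measure only the spread between these samples.

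The deposited normalized values are those fitted by the authors' model, a condition term plus a replicate term for each gene, and not observed counts (the residual SD of the log2 values was 1.64e-15). A level below is a fitted value divided by the library's size factor, and the 3 values of a group differ only by the replicate terms, which are the same in all groups. Whether groups overlap is therefore set by the model, and the error of a difference is the standard error (SE) that the authors deposited for it. The libraries held fitted footprints summing from 2570292 to 12804501. Fold changes were shrunken toward 0 by the authors' model, most for genes with few reads. As a check of the labels, Zfp36 had levels of 459.9 (GFP), 929.0 (GFP-TTP) and 1529 (GFP-TTP-AA). The SE of its differences was 0.25, near the largest of any kept gene, so that these levels are loosely known. Why the TTP-deficient GFP cells had footprints on Zfp36 was not tested. The 5 macrophage markers were all kept, whereas B cell, T cell and fibroblast markers were below the minimum or had no row. Summed over the 5, their levels were 23380 (GFP), 21737 (GFP-TTP) and 26007 (GFP-TTP-AA). Adgre1, which encodes F4/80, was lowest in GFP-TTP (2296, against 3671 in GFP and 5319 in GFP-TTP-AA), whereas Ptprc, which encodes CD45, was highest there (4126, against 3338 and 3021). Itgam, which encodes CD11b, was at 2973, 3195 and 3176 in GFP, GFP-TTP and GFP-TTP-AA, and Cd68 and Csf1r did not pass in any comparison. S100a8, a gene of neutrophils and monocytes, was highest in GFP-TTP-AA (55.6, against 27.1 in GFP and 25.7 in GFP-TTP). It was the only 1 of the 3 neutrophil markers looked for that had a row, and Ly6g and Elane had none. The part of these differences between lines in the results below was not tested.

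Initiation begins when eIF2 brings the initiator tRNA to the small ribosomal subunit, together with eIF1, eIF1A, eIF5 and the large scaffold eIF3. eIF4F, made of the cap-binding protein eIF4E, the helicase eIF4A and the scaffold eIF4G, recruits this complex to the capped end of the mRNA. After the start codon is found, eIF5B joins the large subunit, and eIF2B reloads eIF2 with GTP. In stimulated macrophages this machinery is set in part by phosphorylation of eIF2 and of the eIF4E-binding proteins, neither of which RiboSeq measures.

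In the macrophages, most of the factors stood above a typical gene. Levels were compared between genes only per kilobase (kb) of coding sequence, with the median of all 9968 kept genes that have a coding length at 146.7 and their middle range at 51.4 to 420.6. Eif5a, which encodes a factor now known to act mainly in elongation, was at 20452 per kb. Eif4a1, the main eIF4A helicase, was at 5184 per kb and Eif4h, an eIF4A cofactor, at 4863 per kb. Not all factors were high, and Eif4enif1 (88.7 per kb), Eif4e3 (79.5) and Eif4g3 (71.6) lay below the median of all genes.

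The 13 kept eIF3 subunits spanned 8.41-fold per kb, from Eif3j1 (472.0) to Eif3k (3972), with a median of 2088. Eif3j1 encodes a subunit that is loosely bound to the complex, and without it the other 12 lay within 3.39-fold, from Eif3d (1172 per kb) upwards. Subunits of the eIF3 core were in the same range, with Eif3a at 1472, Eif3c at 1330 and Eif3b at 2703 per kb. With the length of the whole transcript in place of the coding length the range over the 13 subunits became 49.2-fold. Without Eif3j1 it was 3.98-fold on that scale. Eif3j1 was lowest and Eif3k highest on both scales. The order of neighbours is not resolved, since SEs are given only for differences between conditions and short coding sequences weigh the footprints at start and stop codons more.

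In the eIF2 trimer, Eif2s2 (β subunit) was at 2164 per kb, Eif2s1 (α subunit, the target of the eIF2 kinases) at 1645 and Eif2s3x (γ subunit) at 501.3. The Eif2s3x protein is 97.9% identical to that of the excluded Eif2s3y, so that reads may be divided between the pair. Eif2s3y itself had levels of 120.7 (GFP), 51.5 (GFP-TTP) and 323.9 (GFP-TTP-AA), while Eif2s3x was at 667.7, 766.6 and 692.3. The 5 subunits of the exchange factor eIF2B lay lower than the trimer's α and β subunits, from 243.9 per kb for Eif2b4 to 600.7 for Eif2b1. Eif2s1 had 6.46 times the level per kb of Eif2b5, which encodes the catalytic subunit of eIF2B. Per kb of the whole transcript that ratio was 2.13, and Eif2b5 was the lowest and Eif2b3 the highest of the 5 eIF2B genes.

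The eIF4F genes had a 72.4-fold range per kb of coding sequence, and a 49.9-fold range with the whole transcript length. On that scale the eIF3 range was 49.2-fold with Eif3j1 and 3.98-fold without it. Eif4a1 had 7.66 times the level per kb of the scaffold Eif4g1 (676.9) and 2.00 times that of the cap-binding protein gene Eif4e (2588). The place of Eif4e depends on the length used, since its 3′ UTR is long (4192 nt). Per kb of the whole transcript it was below Eif4g1 (339.2 against 576.7), and Eif4a1 had 10.5 times its level. The second copies were much lower. Eif4a2, whose protein is 90.6% identical to that of Eif4a1, was at 433.1 per kb, and Eif4g3 at 71.6, against which Eif4g1 was 9.46 times higher. Of the eIF4E-binding repressors, Eif4ebp1 was at 566.4 per kb and Eif4ebp2 at 438.0, so that Eif4e had 4.57 times the level of Eif4ebp1. Eif4ebp3 had no row in the table.

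**Figure D1:**
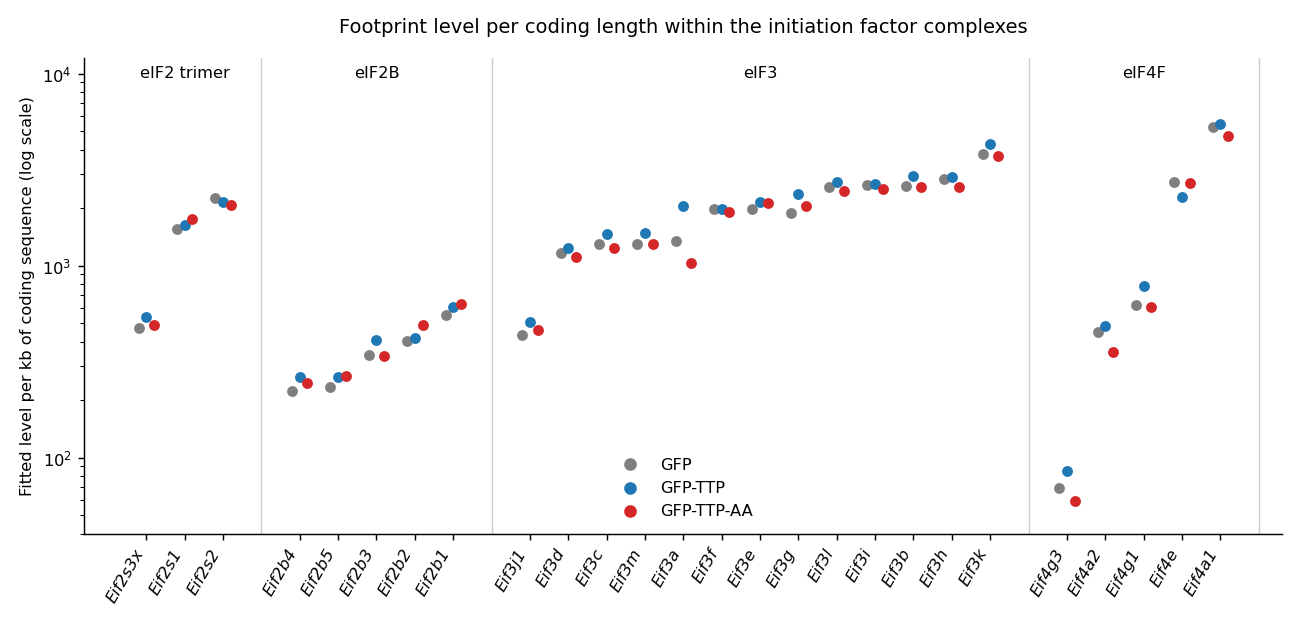
Fitted footprint level per kb of coding sequence (y axis, log scale) for each kept subunit of the eIF2 trimer, eIF2B, eIF3 and eIF4F, ordered by mean level within a complex. Each point is the level of 1 condition over its 3 libraries. Most eIF3 subunits lie between 1172 and 3972 per kb, whereas the eIF4F genes spread from Eif4g3 at 71.6 to Eif4a1 at 5184.

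GFP-TTP was first compared with GFP, which asks what wild-type TTP adds to TTP-deficient cells. Only Eif3a passed an adjusted p of 0.05 (two-sided Wald test, Benjamini-Hochberg over all genes tested), and it was higher in GFP-TTP. This is 1 of 47 factors, where 2.09% of the 9938 genes tested passed in either direction and 0.805% passed as higher. Eif3a encodes the largest eIF3 subunit, the scaffold on which much of the complex is assembled. Its levels were 5274, 5685 and 5335 in the GFP libraries 1, 2 and 3, and 7984, 8619 and 8078 in the GFP-TTP libraries. All 3 GFP-TTP values were above all GFP values, which is set by the model and does not measure agreement between replicates. The log2 fold change was 0.60 ± 0.13 (SE, n = 3 libraries each; Wald adjusted p = 0.000488), or 1.51-fold.

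Eif3a lies on chromosome 19 (mm10, chr19:60761117-60790658, minus strand), where the median log2 fold change of the 364 kept genes was 0.18 in this comparison. Less this median, Eif3a was at 0.42 with an adjusted p of 0.0566. Its 10 kept neighbours at a distance of up to 2 Mb stood at a median of 0.20. The part of the chromosome in the change of Eif3a was not tested further.

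The other factors did not pass. The median log2 fold change was 0.11 over the 47 factors and 0.00 over all kept genes, with 36 of the 47 above 0 where 50.4% of all kept genes were. By group, the medians were 0.10 for the 10 Eif2 genes, 0.17 for the 13 Eif3 genes and 0.06 for the 15 Eif4 genes. All 13 Eif3 values were above 0, from 0.01 for Eif3f to the 0.60 of Eif3a, and without Eif3a the median was 0.14. Subunits of 1 complex are not independent, so that this is a description and not a test. The largest values that did not pass were 0.37 ± 0.13 for Eif5b (adjusted p = 0.119), 0.34 ± 0.12 for Eif4g1 (adjusted p = 0.142) and 0.33 ± 0.14 for Eif1ax (adjusted p = 0.282). Eif4e had the lowest value, -0.27 ± 0.17 (adjusted p = 0.597), and lies on chromosome 3, where the median was -0.18.

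Next, GFP-TTP-AA was compared with GFP. None of the 47 factors passed the Wald test, where 3.11% of 10102 genes did. Before adjustment, 4 of the 47 had a p below 0.05, as did 1431 of the 10102 genes. The nearest was Eif3a, at -0.38 ± 0.13 (adjusted p = 0.0707). Less the chromosome's median of 0.10 it passed, at -0.48 with an adjusted p of 0.0128, and so did Eif4a2 on chromosome 16, at -0.48 with an adjusted p of 0.0454 (-0.35 ± 0.15 before, adjusted p = 0.197). Medians were 0.10 for the Eif2 genes, -0.05 for the Eif3 genes, -0.06 for the Eif4 genes and -0.02 for all 47 factors, against 0.00 for all kept genes.

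The values of the 5 kept genes with names starting Eif1 were all above 0, where 49.4% of all kept genes were. Eif1a was highest, at 0.38 ± 0.14 (adjusted p = 0.112). Its protein is 98.6% identical to that of Eif1ax over the shorter of the pair, and Eif1ax was at 0.25 ± 0.14 (adjusted p = 0.428). For Eif2s1, the regulated subunit of eIF2, the log2 fold change was 0.19 with a 95% interval of -0.09 to 0.46, which leaves room for changes in either direction.

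GFP-TTP-AA was then compared with GFP-TTP, the proteins that differ at the 2 serines. Zfp36 itself was higher in GFP-TTP-AA, by 0.72 ± 0.25 on the log2 scale (adjusted p = 0.0427, Wald test), so that these lines differ in the footprints of TTP as well as in the mutation. At the protein level, the paper reports a similar extent of expression for both fusions by western blot. Both comparisons above share their libraries with this one, so that the values stand side by side and are not independent. There were 5 factors that passed, and all 5 were lower in GFP-TTP-AA: Eif3a, Eif5b, Eif4g3, Eif4a2 and Eif4g1. That is 10.6% of the 47, beside 10.3% of the 10102 genes tested that passed in either direction and 4.9% that passed as lower. The share in either direction is thus that of all genes. In GFP-TTP-AA against GFP, as given above, none of the 5 passed, with values from -0.38 for Eif3a to -0.03 for Eif4g1.

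Eif3a moved most. Its levels were 4063, 4340 and 4076 in the GFP-TTP-AA libraries 1, 2 and 3, against the 7984 to 8619 in GFP-TTP given above. These fitted values did not overlap, and those of GFP-TTP-AA were also below the lowest GFP value of 5274, again as set by the model. Eif3a was lower than in GFP-TTP by 0.98 ± 0.13 on the log2 scale (adjusted p = 4.2e-12, Wald test), with a 95% interval of -1.24 to -0.73. The level was 1.98-fold higher in GFP-TTP. Its 10 neighbours up to 2 Mb away stood at a median of -0.35, with values from -0.66 to -0.13, and chromosome 19 had a median of -0.10. Among the other 12 eIF3 subunits none passed, with values from -0.23 for Eif3c to -0.02 for Eif3e.

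Eif5b encodes the GTPase that joins the ribosomal subunits. Its levels were 1994, 2296 and 1937 in the GFP-TTP libraries and 1340, 1527 and 1291 in the GFP-TTP-AA libraries. These fitted values did not overlap, as set by the model. The difference was -0.58 ± 0.13 (adjusted p = 0.000208), or 1.5-fold.

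The other 3 genes belong to eIF4F. Eif4g3, the minor eIF4G scaffold, had levels of 507.3, 459.5 and 392.6 in GFP-TTP, whereas GFP-TTP-AA had 354.4, 317.6 and 271.9, a difference of -0.53 ± 0.15 (adjusted p = 0.00984). Eif4g1, the main scaffold, had 4265, 3858 and 3281 in GFP-TTP and GFP-TTP-AA had 3320, 2972 and 2532, a difference of -0.37 ± 0.12 (adjusted p = 0.0252). Whether these fitted values overlap only sets the difference against the range of the gene's replicate terms. That range was 0.37 for Eif4g3, whose groups did not overlap, and 0.38 for Eif4g1, whose groups did. Eif4a2, the minor helicase, had 554.8, 700.1 and 546.1 in GFP-TTP against 405.9, 506.8 and 396.1 for GFP-TTP-AA, a difference of -0.46 ± 0.15 (adjusted p = 0.0232).

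The major helicase and the cap-binding protein did not pass. Eif4a1 was at -0.21 ± 0.14 (adjusted p = 0.379) and Eif4e at 0.25 ± 0.17 (adjusted p = 0.423), the only eIF4F gene with a value above 0. The ratio of Eif4e to Eif4g1 per kb was 4.39 (GFP), 2.88 (GFP-TTP) and 4.42 (GFP-TTP-AA). That of Eif4a1 to Eif4a2 was 11.7, 11.3 and 13.4. These ratios are descriptions without an error, and whether they differ between conditions was not tested. Eif4b, which encodes an eIF4A cofactor, was at -0.35 ± 0.14 (adjusted p = 0.0915), and the eIF4E-binding repressor genes Eif4ebp1 and Eif4ebp2 at -0.22 ± 0.19 and -0.07 ± 0.21.

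**Figure D2:**
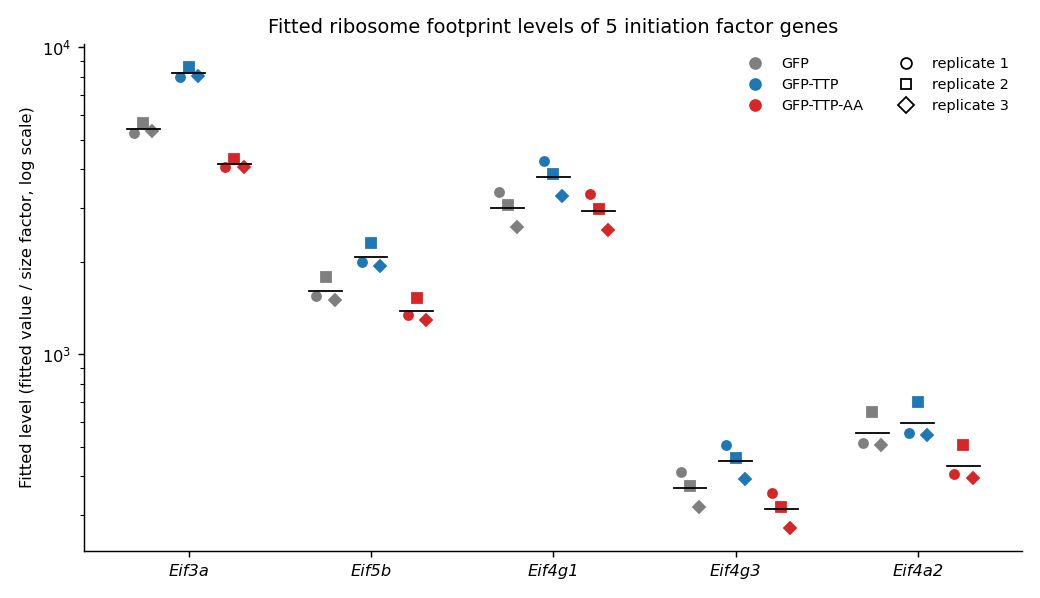
Fitted level (y axis, log scale) of the 5 factors past the threshold in GFP-TTP-AA against GFP-TTP, in each of the 9 libraries. Colours mark the condition, symbols the replicate number, and black lines the level of the condition. All 5 genes are highest in GFP-TTP, and Eif3a falls from 8222 (GFP-TTP) to 4158 (GFP-TTP-AA).

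By group, the medians in this comparison were -0.04 for the Eif2 genes, -0.17 for the Eif3 genes and -0.16 for the Eif4 genes, with -0.11 over the 47 factors and 0.00 over all kept genes. Values were below 0 for 13 of 13 Eif3 genes, 12 of 15 Eif4 genes and 6 of 10 Eif2 genes, where 5131 of the 10102 kept genes were. None of the eIF2 trimer or eIF2B genes passed, and their values ran from -0.28 (Eif2b3, adjusted p = 0.219) to 0.22 (Eif2b2, adjusted p = 0.414). No test of the difference between the factor groups was made, since their genes are not replicates.

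**Figure D3:**
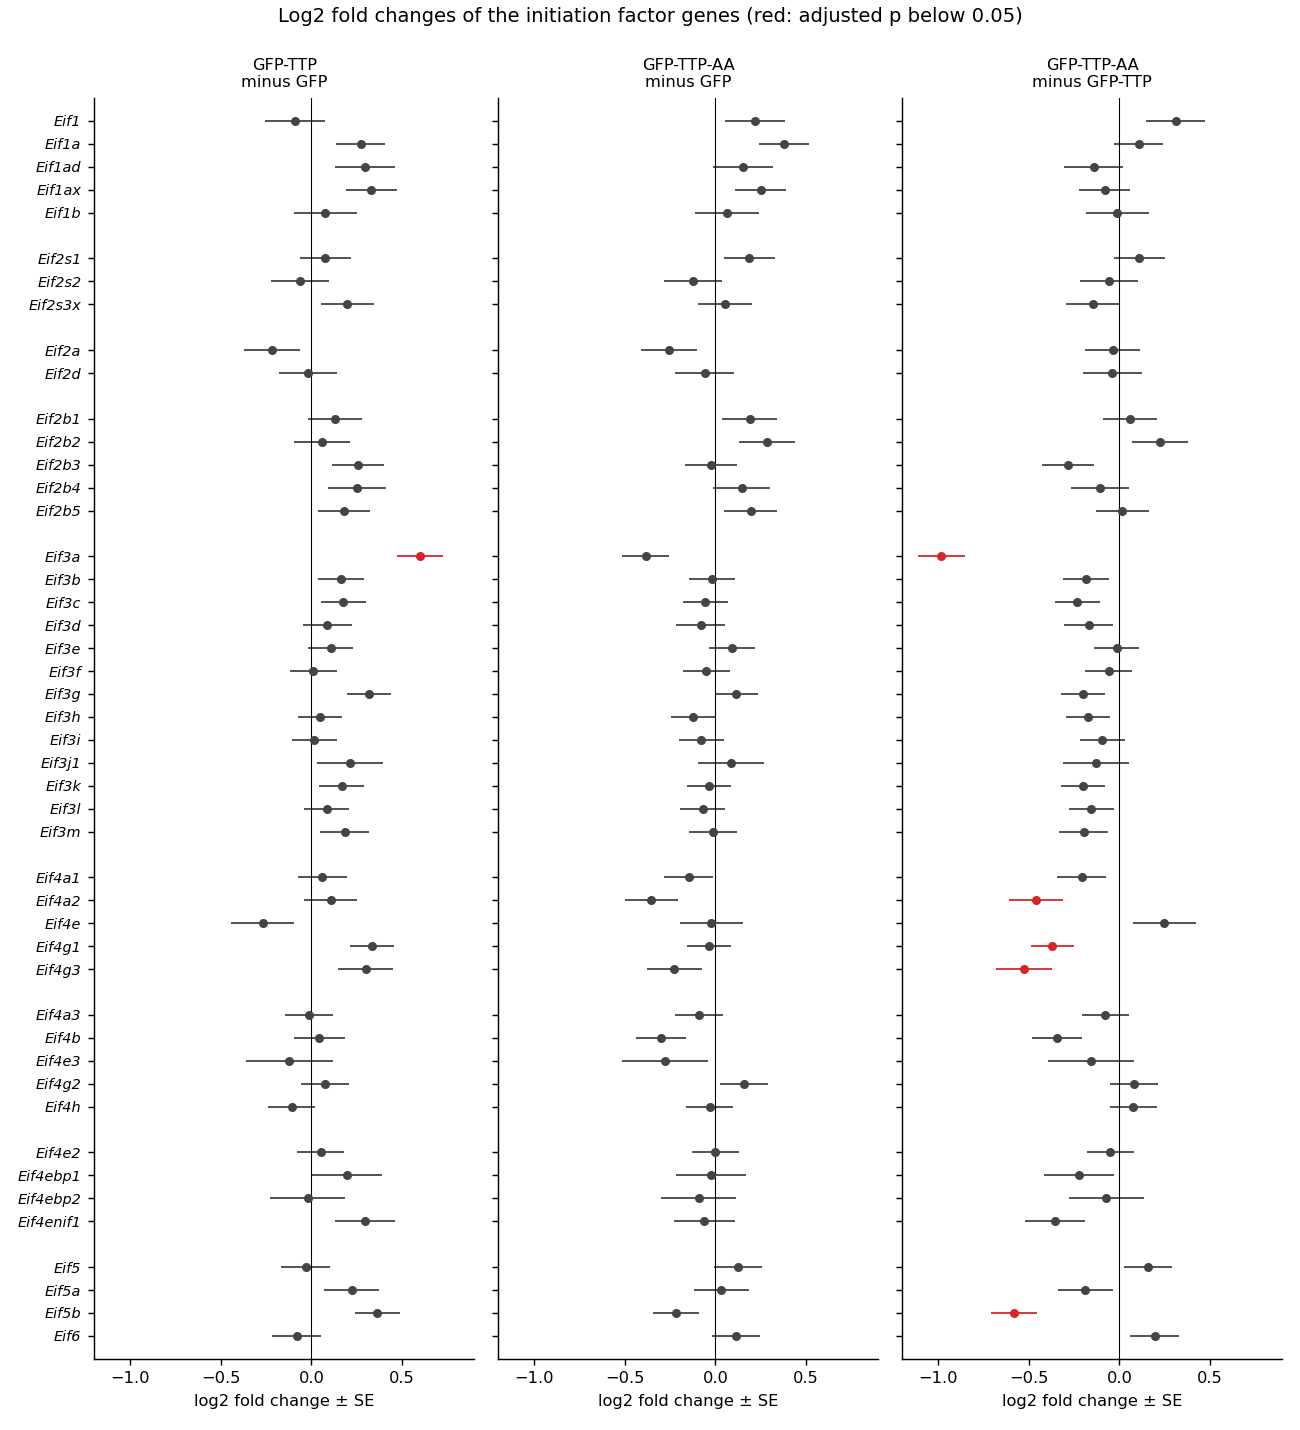
Log2 fold change (x axis, point) ± SE (bar) of the kept factors except the pseudogene row Eif4a-ps4, ordered by factor from eIF1 at the top to eIF5 and eIF6 at the bottom, in each comparison. Red marks an adjusted p below 0.05. The eIF3 values lie to the right of 0 in GFP-TTP minus GFP and to the left in GFP-TTP-AA minus GFP-TTP, most within 2 SE of 0, and Eif3a stands apart in both.

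Of the 5 genes that passed as lower in GFP-TTP-AA than in GFP-TTP, 4 have long coding sequences. These are 4035 nt for Eif3a, 3651 nt for Eif5b, 4803 nt for Eif4g1 and 5289 nt for Eif4g3. These 4 genes are among 7 factors in the longest 20% of all kept genes (2508 nt and more), whereas Eif4a2 has 1227 nt. Coding length was related to the fold change across all genes too. In GFP-TTP-AA against GFP-TTP the median of all kept genes went from 0.10 in the shortest 20% to -0.12 in the longest 20%, and the share that passed as lower from 1.5% to 11.4%. Spearman's rho with coding length was -0.25 over 9968 genes and -0.43 over the 46 factors with a coding length, and -0.26 over the 41 factors that did not pass. In GFP-TTP against GFP it was 0.15 and 0.30, for all genes and the factors. Genes share libraries and their errors differ, so that these are descriptions across genes.

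The factors that moved were set against genes of like length. In the class of 498 genes with 3495 to 4647 nt, the median was -0.13 and Eif3a and Eif5b ranked at the 1.00 and 6.83 percentile. Less the median of its class, Eif3a was at -0.85 and Eif5b at -0.45, both past the threshold, as was Eif4a2. Eif4g1 (-0.18, adjusted p = 0.405) and Eif4g3 (-0.34, adjusted p = 0.168) were not. This alternative was chosen after the relation had been seen, and the part of coding length in the results was not tested beyond it.

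**Figure D4:**
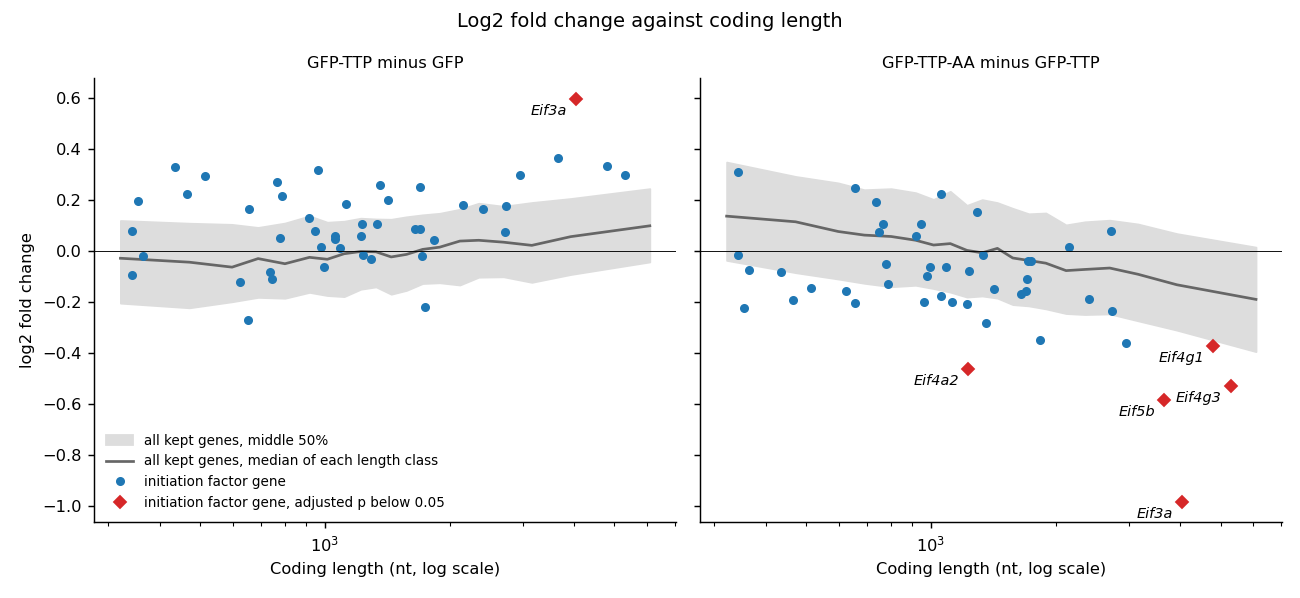
Log2 fold change (y axis) against coding length (x axis, log scale) in both comparisons that involve GFP-TTP. The line and band give the median and the middle 50% of all kept genes in 20 length classes, and points are the factors. Eif3a lies outside the band in both panels, whereas Eif4g1 lies at its lower edge on the right.

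Since TTP binds AU-rich elements, the 3′ UTRs of the factors were searched on the transcript strand for the pentamer ATTTA and the heptamer TATTTAT, which contains it. In the annotated transcript with the longest coding sequence, 25 of the 44 kept factors with a 3′ UTR held the pentamer (56.8%, against 66.6% of 9826 kept genes) and 10 held the heptamer (22.7%, against 27.8%). The eIF3 genes had short 3′ UTRs, with a median of 166 nt where that of all genes was 960 nt, and only Eif3a, Eif3c and Eif3j1 of the 13 held a pentamer. The eIF4 genes had long ones (1814 nt), and 10 of 12 held it. Eif2s1 had the most pentamers, 13. A match is a run of letters and not evidence of binding.

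Among the 5 genes that passed as lower in GFP-TTP-AA than in GFP-TTP, Eif3a had 2 pentamers, of which 1 lies in a heptamer. Eif5b had 4 pentamers and no heptamer, and Eif4g1 had neither in 450 nt. The chosen transcripts of Eif4a2 and Eif4g3 have no annotated 3′ UTR and gave no answer. The heptamer sites are shown for the gene that moved most and for 4 factors of other complexes that hold one and did not pass in any comparison, read 5′ to 3′ on the transcript strand from GENCODE vM21 and checked on GRCm38 (mm10). Capitals mark the heptamer.
Eif3a, chr19:60761338-60761360, minus strand: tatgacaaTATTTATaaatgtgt
Eif2s1, chr12:78885953-78885975, plus strand: atgtatacTATTTATtatctgta
Eif2b3, chr4:117086808-117086830, plus strand: tgactcttTATTTATttttcaat
Eif4a1, chr11:69666980-69667002, minus strand: ttgtatagTATTTATtgattcag
Eif4ebp1, first site, chr8:27275695-27275717, plus strand: ctatcatcTATTTATctatctat
Eif4ebp1, second site, chr8:27276146-27276168, plus strand: cgaaaattTATTTATtattatat
The site of Eif2b3 and the second site of Eif4ebp1 also hold the longer run TTATTTATT, and the other 4 sites shown do not. In GFP-TTP-AA against GFP-TTP these 4 other genes were at 0.11 (Eif2s1), -0.28 (Eif2b3), -0.21 (Eif4a1) and -0.22 (Eif4ebp1). The remaining holders, whose sites are not shown, were at 0.16 (Eif5), 0.08 (Eif4g2), -0.07 (Eif4ebp2), -0.13 (Eif3j1) and -0.15 (Eif2s3x). Over the 10 factors with a heptamer the median was -0.14 and over the others with a 3′ UTR -0.09, against -0.05 and 0.01 in all kept genes. In GFP-TTP against GFP the factors with a heptamer had the higher median, 0.14 against 0.09 (-0.01 and 0.01 in all kept genes), and likewise in GFP-TTP-AA against GFP, 0.01 against -0.03 (-0.07 and 0.02 in all kept genes).

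Replicate numbers shifted some factors as much as the conditions did. The replicate term, relative to the gene's mean, was 0.24 in replicate 3 and -0.24 in replicate 2 for Eif3f, an eIF3 subunit. Eif4g1 was at 0.18 in replicate 1, and Eif4ebp1 at 0.28 in replicate 2. The SD of the terms over the 47 factors was between 0.11 and 0.13, below the 0.15 to 0.19 over all kept genes. No error is given for them.

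Genes that work with the factors were counted in the same way. In GFP-TTP-AA against GFP-TTP, 6 of 19 other initiation genes passed as lower and 1 as higher, beside the 10.3% of all genes tested that passed in either direction and the 4.9% as lower. Dhx29, a helicase for structured 5′ UTRs, was at -0.75 ± 0.17, Larp1, which binds mRNAs of the translation machinery, at -0.73 ± 0.14, and Pabpc1, the poly(A)-binding protein that contacts eIF4G, at -0.68 ± 0.17. Gigyf2, Pdcd4, an inhibitor of eIF4A, and Ddx3x also passed. Mknk2, a kinase of eIF4E, was the one that was higher, at 0.84 ± 0.18 (adjusted p = 0.000152), and it was lower in GFP-TTP than in GFP, at -0.67 ± 0.18 (adjusted p = 0.0147). Of 7 elongation factor genes 2 passed as lower (Eef1g and Eef1e1), of 4 termination and recycling genes 1 passed as higher (Gspt2), and none of the 6 eIF2 kinase and phosphatase genes passed in any comparison. In GFP-TTP against GFP, where 2.09% of all genes passed, so did Eef1g, at 0.56 ± 0.12 (adjusted p = 0.000621). These lists are short, and nothing particular to them is read from the counts.

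Over the 53 factors together, the fitted footprints made up 1.47% to 1.53% of each GFP library, 1.61% to 1.68% of each GFP-TTP library and 1.43% to 1.48% of each GFP-TTP-AA library. As the values are fitted, the narrow ranges within a group reflect only the replicate terms. The summed levels of the 47 kept factors were 90803 (GFP), 100259 (GFP-TTP) and 88204 (GFP-TTP-AA), of which Eif3a alone made up 5428, 8222 and 4158.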

How the data were processed

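RiboSeq libraries of 9 samples (3 groups of 3) were analysed. The authors' processing notes name Trim Galore, TopHat2 2.0.12, HTSeq and DESeq2 1.6.3, and the paper another TopHat version. Mapping was to GRCm38 (mm10), where a read could keep 2 alignments, and the model had terms for library date and condition. Reads shared by near-identical genes may be split or lost. The deposited signal table holds fitted values, and the deposited comparison tables hold a log2 standard error, which was used, and fold changes, statistics and p-values, which were not. Because the values are fitted, size factors were set by the median of ratios of the fitted values. Fold changes were divided by the deposited standard error (two-sided Wald test, Benjamini-Hochberg over genes with a mean level of at least 10, threshold 0.05). No pseudocount was used. Computation was in Python 3.11.15 with SciPy 1.17.1, tested on simulated data, and with GENCODE vM21 annotation, which gave 16836 of 16921 identifiers. Named were every factor past the threshold, subunits of each complex (not all those of eIF3), Zfp36, cell type markers and some other factors and related genes. Adgre1 is listed under an older name. The members and lists were chosen with earlier results of these data known. Alternatives changed the minimum level, the adjustment, the centring (all genes, chromosome, length class) and the treatment of close relatives.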

Additional observations from a re-analysis of the deposited data

How the results depend on the processing

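No paired analysis was possible because the deposited values are fitted, with the replicate term already in them and no replicate spread left. For the same reason the fits that leave out a replicate or the block could not be run, depth limits the results only through the deposited standard errors (up to 0.25), and copies of one library could not be looked for. Of 138 alternative values of 24 results, 129 kept their direction and side of the threshold or stayed within the standard error, among them all 72 medians of factor groups. This count is no measure of robustness. The minimum level and the adjustment leave a gene's fold change as it is, and a minimum of 1 tested the same genes as no minimum. Less the chromosome's median, the count in GFP-TTP against GFP went from 1 to 0, and in GFP-TTP-AA against GFP from 0 to 2 (Eif3a and Eif4a2). Less the median of the coding length class, an alternative added after the data had been seen, the count in GFP-TTP-AA against GFP-TTP went from 5 to 3, without Eif4g1 and Eif4g3. In that comparison the adjusted p of Eif3a ranged from 4.0e-12 to 5.3e-09 over its 7 alternatives. The range of the eIF3 subunits went from 8.41-fold to 49.2-fold with the whole transcript length, and on that scale, added for eIF4F after the data had been seen, its range went from 72.4-fold to 49.9-fold and the ratio of Eif4a1 to Eif4e from 2.00 to 10.5. The causes were not tested.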
